A study of Mus musculus with 9 samples.

Results

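Ribosome biogenesis was followed through 40 genes for nucleolar processing factors and RNA polymerase I (Pol I), chosen by gene symbol as typical targets of the transcription factor Myc. All 40 had a row among the 24930 gene symbols of the deposited table. Each was at 1 FPKM or more in all 9 libraries, so none was lost to the filter that left 12097 genes for testing. FPKM stands for fragments per kilobase of transcript, here scaled between libraries as described below. The rule that chose them names gene symbols and no measured value, but it was set with earlier results of these data known.

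The study compared control crypt epithelium of the mouse intestine with epithelium in which 1 allele of the β-catenin gene had been made a gain-of-function allele, at day 8, day 9 and day 10 after induction. Poly(A) RNA was sequenced as read pairs, with 1 library for each group and day, 3 libraries per group. The groups are called here by their titles: Control, Bcathet (the β-catenin allele) and Cdx2het_Bcathet (the β-catenin allele with a heterozygous Cdx2 allele). The library names give the opposite assignment of the Cdx2 allele: those of the set titled Bcathet carry CDX2HET and EXON3, and those of the set titled Cdx2het_Bcathet carry EXON3 alone. The label of the tissue is epithelium, and the sources used here do not give the Cre driver, the inducing agent, the strain, the sex or the age. Separate animals are not stated for the libraries, so a p-value here speaks of the spread among libraries, which may be technical.

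The sums of the FPKM columns ran from 624923 to 755802, and 1 FPKM was worth an estimated 18.1 to 20.6 fragments per kilobase of transcript. The 7 epithelial markers were all detected, with summed levels of 3779 to 4538 FPKM, whereas the 6 fibroblast markers summed to 6.64 FPKM at most. Cdx2, the intestinal identity factor, was at 108 to 139 FPKM in Control, at 126 to 144 FPKM in Bcathet and at 178 to 196 FPKM in Cdx2het_Bcathet, so the set titled with the Cdx2 allele had the highest levels. Ctnnb1, which encodes β-catenin, was at 195 ± 10.5 FPKM (SD, n = 3) in Control and 227 ± 11.9 FPKM (SD, n = 6) in the mutant libraries (log2 fold change 0.22 ± 0.0658 SE, limma adjusted p = 0.126), a level that does not report the state of the allele. The Cdx2het_Bcathet library of day 9 stood apart. It lay at -19.1 on the first principal component, where the Control libraries lay between -22.7 and -21.6 and the other 5 mutant libraries between 2.57 and 30.0. It was also the only library with Xist near 0 (0.1002 FPKM against 27.0 to 39.4 FPKM in the other 8) and with Y-linked RNA (41.7 FPKM summed over 4 genes, against 0.0470 FPKM at most). By these RNAs that library came from male tissue and the other 8 from female tissue. It was thus from another animal than they were, and Cdx2het_Bcathet mixes sexes. For the main comparison, counts of genes that passed are therefore given with and without that library. They cover all genes, the 40 genes, and the S phase and Paneth cell lists.

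Ribosomes are assembled in the nucleolus, where Pol I transcribes the long precursor of the ribosomal RNAs. Small nucleolar ribonucleoproteins (snoRNPs) modify the precursor, and assembly factors cut, fold and export it as the small and large subunits. Crypt cells divide rapidly and are known for a high demand for new ribosomes, and WNT signalling through β-catenin is known to act on Myc, a regulator of many genes of this pathway.

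Promoter windows of the genes are shown because Myc and its partner Max are known to bind the E-box CACGTG. RefSeq windows (build GRCm38.p6, from 250 bases before to 50 bases after the start) were found for 33 of the 40 genes. The E-box, which reads the same on both strands, was in the windows of 7 of the 33 (21.2%): Imp4, Nop2, Pes1, Rrn3, Utp4, Utp20 and Wdr43. It was in 12.0% of the windows of 9454 genes tested here and in 8.09% of all 27025 genes with a window. The motif CCGGAAG, the core of sites of ETS family factors, was searched on both strands (CTTCCGG on the other) and was in 10 of the 33 (30.3%), against 20.9% and 9.93% of the same backgrounds. A match is a description of letters, not of a bound site. Utp20 and Gar1, whose levels are described below as the lowest relative to Control, Ppan, one of the 3 highest, and Rrn3, with 2 copies of each motif, are printed 5′ to 3′ on the strand of the gene, with E-boxes and ETS motifs, which do not overlap in these windows, in capitals:
Utp20, E-box, chr10:88826765-88827064, minus strand: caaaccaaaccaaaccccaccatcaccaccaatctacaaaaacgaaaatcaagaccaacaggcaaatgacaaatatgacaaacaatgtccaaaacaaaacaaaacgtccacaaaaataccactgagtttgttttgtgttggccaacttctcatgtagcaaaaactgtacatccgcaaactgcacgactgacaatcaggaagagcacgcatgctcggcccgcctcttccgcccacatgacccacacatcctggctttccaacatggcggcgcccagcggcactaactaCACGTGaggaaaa
Rrn3, both motifs, chr16:13780449-13780748, plus strand: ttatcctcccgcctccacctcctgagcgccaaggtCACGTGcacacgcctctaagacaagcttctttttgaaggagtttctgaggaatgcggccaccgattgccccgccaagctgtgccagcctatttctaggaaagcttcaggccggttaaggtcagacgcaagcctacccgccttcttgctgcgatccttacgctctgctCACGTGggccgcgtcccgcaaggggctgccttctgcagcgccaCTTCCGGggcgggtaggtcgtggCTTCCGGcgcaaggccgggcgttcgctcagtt
Gar1, ETS motif, chr3:129831347-129831646, minus strand: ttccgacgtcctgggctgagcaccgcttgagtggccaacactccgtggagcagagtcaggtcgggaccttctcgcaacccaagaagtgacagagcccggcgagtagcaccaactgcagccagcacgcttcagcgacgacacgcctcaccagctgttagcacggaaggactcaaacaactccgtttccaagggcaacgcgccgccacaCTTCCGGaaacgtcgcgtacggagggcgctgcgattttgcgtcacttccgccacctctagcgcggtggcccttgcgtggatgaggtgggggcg
Ppan, ETS motif, chr9:20887925-20888224, plus strand: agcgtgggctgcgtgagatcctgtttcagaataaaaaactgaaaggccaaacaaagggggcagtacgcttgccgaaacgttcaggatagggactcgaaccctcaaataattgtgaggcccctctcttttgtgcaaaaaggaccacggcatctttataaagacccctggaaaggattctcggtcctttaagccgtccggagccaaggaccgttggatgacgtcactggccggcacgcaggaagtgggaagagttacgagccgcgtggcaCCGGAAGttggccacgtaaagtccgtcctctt

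Levels in FPKM, which are per length, spanned nearly 2 orders of magnitude among the 40 genes. Npm1, encoding the nucleolar chaperone nucleophosmin, was highest, with a mean of 314 FPKM over the 9 libraries. It was followed by the methyltransferase gene Fbl at 162 FPKM, by Nop10 at 128 FPKM, Nhp2 at 91.8 FPKM and Nop56 at 72.6 FPKM, all of them core snoRNP proteins. The lowest was Polr1e, a Pol I subunit gene, at 4.01 FPKM. Each gene was held within a narrow range: the highest of the 9 libraries exceeded the lowest by 1.17-fold (Nop2) to 1.505-fold (Wdr12). The ranges of Fbl (149 to 180 FPKM) and Npm1 (268 to 344 FPKM) did not touch, and neither did those of Nhp2 (82.1 to 96.9 FPKM) and Nop10 (116 to 142 FPKM), whereas those of Nop56 (64.5 to 82.1 FPKM) and Nhp2 overlapped marginally.

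**Figure D1:**
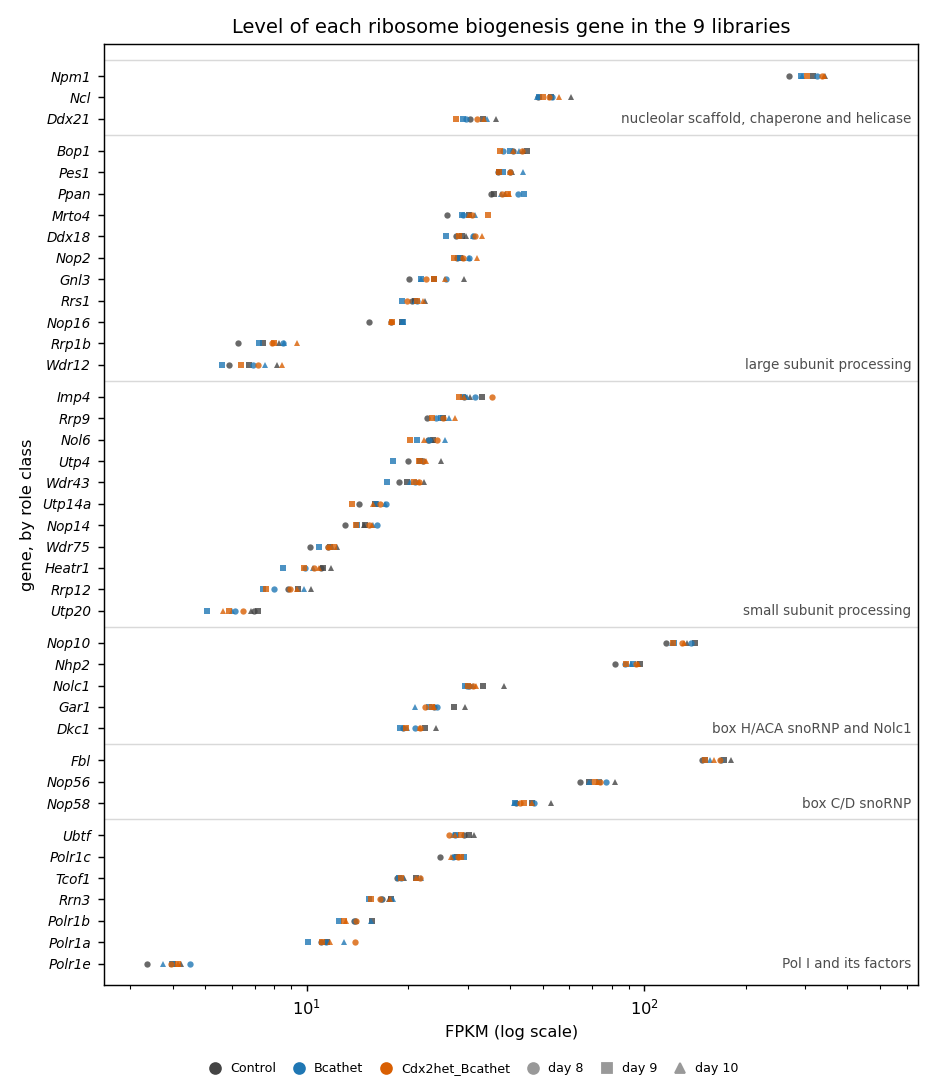
Level of each of the 40 genes (FPKM, log axis) in the 9 libraries, grouped by role; colour marks the group and shape the day. The 9 points of a gene lie close together while genes differ widely, from Polr1e at a mean of 4.01 FPKM to Npm1 at 314 FPKM.

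The main comparison asked whether transcripts of this pathway differ when β-catenin is activated. None of the 40 genes rose or fell in the 6 mutant libraries against the 3 Control libraries (limma, two-sided, adjusted p below 0.05 over all genes tested), where 1.16% of all genes tested passed (140 genes, with 0.513% higher and 0.645% lower). The smallest adjusted p among the 40 was 0.143, for Utp20. At an unadjusted p below 0.05 there were 4 of the 40 (10%), Utp20, Gar1, Ubtf and Heatr1, all lower, against 21% of all genes tested. The median log2 fold change was -0.01 over the 40 genes, 20 positive and 20 negative, and -0.002 over all genes tested. Every library has an equal median ratio to the geometric means of the genes, a scale that holds the median of all genes near 0. The 95% intervals of all 40 genes lay between -0.39 and 0.38 on the log2(FPKM + 1) scale, that is between 0.763-fold and 1.30-fold. The median size of a difference was 0.06, close to the median standard error of 0.08, while 9022 genes of the same range of levels had a median size of 0.11 with a median standard error of 0.09. Without the day-9 Cdx2het_Bcathet library 995 genes were called, and still none of the 40.

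The groups did not overlap in 3 of the 40 genes (7.5%), against 12.6% of all genes tested. In these, Ubtf, Utp20 and Heatr1, every mutant library was below every Control library, and in none was every mutant library above. Of all genes tested, 7.37% were lower without overlap and 5.19% higher. Rescaling every library to the same total FPKM moved the median of all genes from -0.002 to 0.035 on the log2 scale. All 3 then overlapped, and none of the 40 had an unadjusted p below 0.05. Of the 40 differences 25 were positive, with a median of 0.033, close to that of all genes. Equal totals are not a neutral scale here, because the totals hold the Paneth cell transcripts. The 7 Paneth cell markers summed to 60198 ± 16020 FPKM (SD, n = 3) in Control and 24908 ± 6292 FPKM (SD, n = 6) in the mutants. Mean column totals were 697828 and 678755 FPKM. The part of these markers in the rescaled values was not tested.

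**Figure D2:**
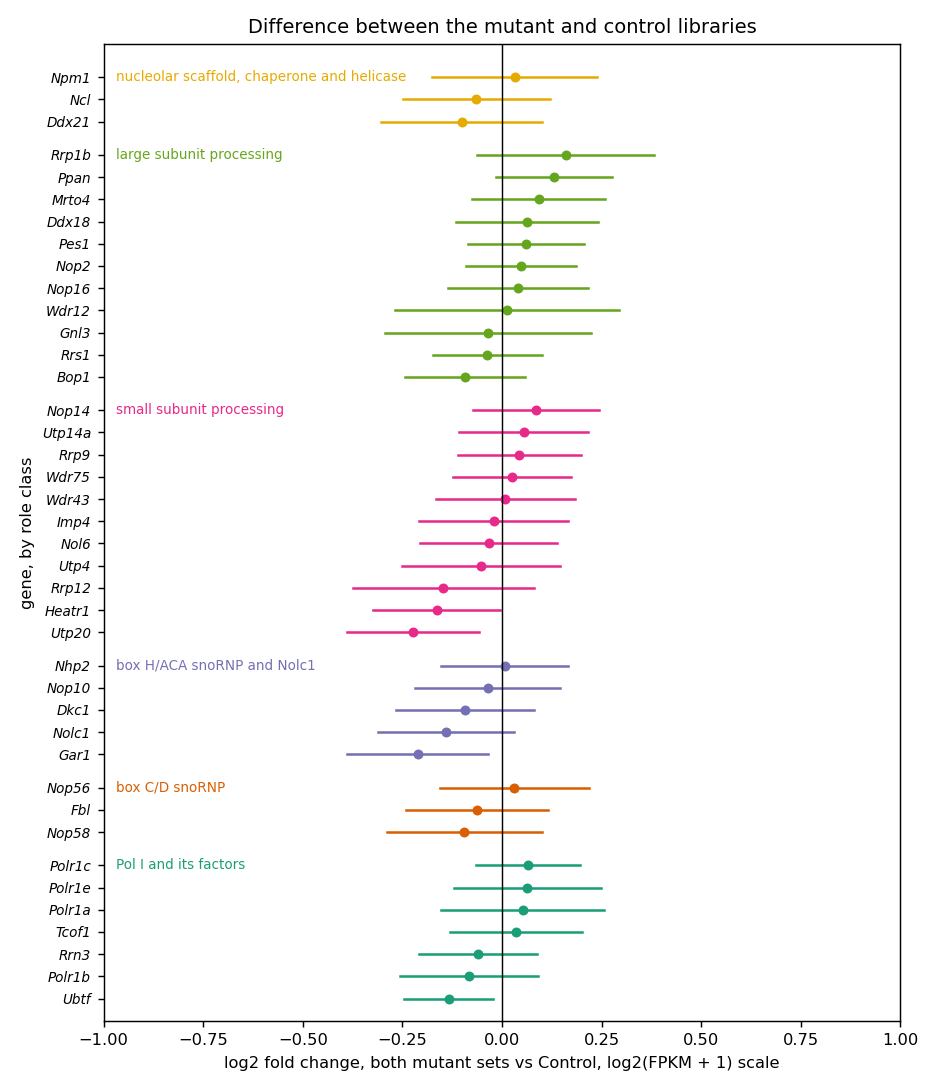
Difference of both mutant sets from Control (log2 fold change on the log2(FPKM + 1) scale) for each gene, with points for the estimate, bars for the 95% interval and colours for the role. All bars lie between -0.39 and 0.38, and only those of Ubtf, Gar1, Utp20 and Heatr1 leave out 0, none of which passed after adjustment.

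Among the 7 genes of Pol I and its factors the median log2 fold change was 0.03, with 4 positive. Polr1a, the largest subunit, was at 10.1 to 13.9 FPKM over the 9 libraries, and Polr1b, the second largest, at 12.4 to 15.6 FPKM. Polr1c, shared with RNA polymerase III, was at 24.8 to 29.2 FPKM, and Polr1e at 3.36 to 4.49 FPKM. The log2 fold changes of these 4 subunit genes were between -0.08 and 0.06. Rrn3, the factor that makes Pol I competent to initiate (promoter above), was at 15.3 to 18.0 FPKM with a log2 fold change of -0.06, and Tcof1, the nucleolar phosphoprotein treacle, at 18.5 to 21.7 FPKM with 0.03.

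Ubtf encodes the upstream binding factor, which binds ribosomal DNA and opens it for Pol I. Its level was 29.1, 30.2 and 31.2 FPKM in Control at days 8, 9 and 10, 27.5, 27.6 and 27.1 FPKM in Bcathet and 26.5, 28.6 and 27.5 FPKM in Cdx2het_Bcathet. All 6 mutant libraries were below the lowest Control library, with little spread in any group. The mean was 30.2 ± 1.06 FPKM (SD, n = 3) against 27.4 ± 0.687 FPKM (SD, n = 6), a log2 fold change of -0.13 ± 0.0488 (SE; 95% interval -0.24 to -0.02) that did not pass (limma adjusted p = 0.175).

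**Figure D3:**
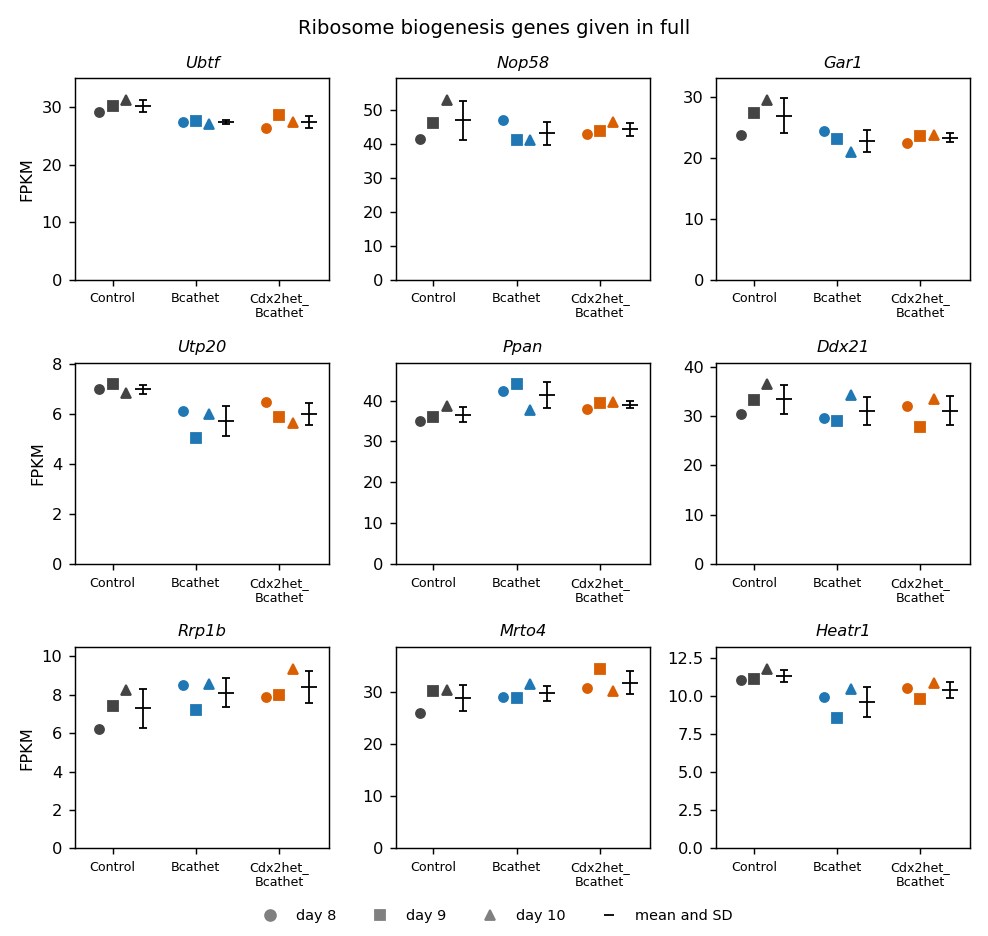
FPKM of the 9 genes given in full, by group and day, each panel with its own axis. Points are single libraries, and black bars give each group's mean and SD (n = 3); Ubtf, Utp20 and Heatr1 are the genes in which the 6 mutant libraries do not overlap Control.

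Of the box C/D snoRNP, which methylates ribosomal RNA, Fbl is the methyltransferase and Nop56 and Nop58 are its paired core proteins. The log2 fold changes were -0.06 for Fbl and 0.03 for Nop56. Nop58 was at 41.6, 46.4 and 53.1 FPKM in Control at days 8, 9 and 10, at 47.2, 41.3 and 41.2 FPKM in Bcathet and at 42.9, 43.9 and 46.5 FPKM in Cdx2het_Bcathet. The Control libraries spanned nearly the whole range of the mutant ones and reached beyond it at day 10. The log2 fold change was -0.09 ± 0.0850 (SE; 95% interval -0.29 to 0.10; limma adjusted p = 0.560). The ratio of Nop56 to Nop58 FPKM was 1.48 to 1.55 in Control and 1.57 to 1.78 in the mutant libraries, without overlap. Of the 11 ratios within complexes that were computed, only this one and that of Gar1 to Dkc1 did not overlap. None of them was tested.

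The box H/ACA snoRNP converts uridine to pseudouridine. The class of its core proteins together with Nolc1 had a median log2 fold change of -0.09, with 4 of 5 genes negative. Dkc1, the catalytic subunit dyskerin, was at 18.9 to 24.1 FPKM with a log2 fold change of -0.09. The core proteins Nhp2 and Nop10 had log2 fold changes of 0.01 and -0.04. Nolc1, a chaperone of snoRNPs in the nucleolus, was at 29.4 to 38.4 FPKM with a log2 fold change of -0.14 (limma adjusted p = 0.316).

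Gar1, the remaining core protein, was at 23.8, 27.4 and 29.4 FPKM in Control at days 8, 9 and 10, at 24.3, 23.0 and 20.9 FPKM in Bcathet and at 22.5, 23.6 and 23.8 FPKM in Cdx2het_Bcathet. The groups overlapped only through the day-8 Control and day-8 Bcathet libraries. The mean was 26.9 ± 2.87 FPKM (SD, n = 3) in Control and 23.0 ± 1.21 FPKM (SD, n = 6) in the mutants, a log2 fold change of -0.21 ± 0.0771 (SE; 95% interval -0.39 to -0.04; limma adjusted p = 0.173). Relative to its partner Dkc1, the ratio for Gar1 was 1.22 to 1.23 in Control and 1.04 to 1.22 in the mutants, again without overlap by a small margin and without a test.

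The 11 genes of small subunit processing act in or around the large complex on the nascent precursor called the processome. Their median log2 fold change was -0.02, with 5 positive. Utp4 (18.0 to 24.96 FPKM), Wdr43 (17.3 to 22.3 FPKM) and Wdr75 (10.2 to 12.3 FPKM) belong with Heatr1 to the subcomplex that binds the precursor first, and their log2 fold changes were -0.05, 0.01 and 0.02. Utp14a (13.6 to 17.2 FPKM), a cofactor of a helicase of the processome, had a log2 fold change of 0.05, Nol6 (20.3 to 25.6 FPKM), a processome subunit, -0.03, and the assembly factor Nop14 (13.0 to 16.1 FPKM) 0.09. The snoRNP-associated proteins Imp4 (28.2 to 35.5 FPKM) and Rrp9 (22.8 to 27.5 FPKM) had -0.02 and 0.04. Rrp12 (7.42 to 10.3 FPKM), a factor of maturation and export, had a log2 fold change of -0.15.

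Utp20, a very large scaffold protein of the processome, had the lowest log2 fold change of the 40 genes. It was at 6.99, 7.18 and 6.83 FPKM in Control at days 8, 9 and 10, at 6.12, 5.05 and 6.00 FPKM in Bcathet and at 6.48, 5.89 and 5.63 FPKM in Cdx2het_Bcathet. The Control libraries were close together and above every mutant library. The mean was 7.00 ± 0.178 FPKM (SD, n = 3) in Control and 5.86 ± 0.486 FPKM (SD, n = 6) in the mutants, a log2 fold change of -0.22 ± 0.0725 (SE; 95% interval -0.39 to -0.06; limma adjusted p = 0.143).

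Heatr1, also a large scaffold protein and needed for Pol I transcription, was at 11.0, 11.1 and 11.8 FPKM in Control, at 9.90, 8.52 and 10.4 FPKM in Bcathet and at 10.5, 9.79 and 10.9 FPKM in Cdx2het_Bcathet, each at days 8, 9 and 10. The highest mutant library was just below the lowest Control library. The log2 fold change was -0.16 ± 0.0699 (SE; limma adjusted p = 0.228).

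Large subunit processing held 8 positive log2 fold changes of 11, with a median of 0.05. Bop1 (37.4 to 44.8 FPKM), Pes1 (36.9 to 43.8 FPKM) and Wdr12 (5.61 to 8.44 FPKM) form 1 complex needed to mature the large subunit, and their log2 fold changes were -0.09, 0.06 and 0.01. Rrs1 (19.1 to 22.4 FPKM), which brings in a small ribosomal RNA with its proteins, had -0.04, and Gnl3 (20.1 to 29.2 FPKM), the nucleolar GTPase nucleostemin, also had -0.04. Nop2 (27.4 to 32.0 FPKM), an RNA methyltransferase, had 0.05, the assembly factor Nop16 (15.3 to 19.3 FPKM) 0.04, and Ddx18 (25.9 to 33.1 FPKM), a helicase, 0.06.

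Ppan, a factor of large subunit maturation, was at 35.1, 35.98 and 38.7 FPKM in Control at days 8, 9 and 10, at 42.3, 44.0 and 37.7 FPKM in Bcathet and at 37.9, 39.5 and 39.7 FPKM in Cdx2het_Bcathet. The day-10 Control library overlapped the mutant ones. The log2 fold change was 0.13 ± 0.0638 (SE; 95% interval -0.01 to 0.28; limma adjusted p = 0.281).

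Rrp1b, a nucleolar protein of large subunit processing, had the highest log2 fold change of the 40 genes, 0.16 ± 0.0972 (SE; 95% interval -0.06 to 0.38; limma adjusted p = 0.386). Its levels were 6.23, 7.40 and 8.27 FPKM in Control, 8.50, 7.23 and 8.56 FPKM in Bcathet and 7.87, 7.97 and 9.35 FPKM in Cdx2het_Bcathet, each at days 8, 9 and 10. The day-8 Control library was lowest, and the others overlapped.

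Mrto4, an assembly factor that holds the place of a stalk protein on the immature large subunit, was at 26.0, 30.2 and 30.5 FPKM in Control, at 29.1, 28.9 and 31.5 FPKM in Bcathet and at 30.9, 34.5 and 30.3 FPKM in Cdx2het_Bcathet at days 8, 9 and 10. The groups overlapped, with a log2 fold change of 0.09 ± 0.0730 (SE; limma adjusted p = 0.509).

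The scaffold, chaperone and helicase genes of the nucleolus did not stand out from the rest. Npm1 was at 310 ± 38.4 FPKM (SD, n = 3) in Control and 316 ± 21.9 FPKM (SD, n = 6) in the mutants, and its log2 fold change was 0.03. Ncl, nucleolin, was at 48.1 to 60.8 FPKM with a log2 fold change of -0.06. Ddx21, a helicase known to link Pol I and Pol II transcription, was at 30.4, 33.3 and 36.4 FPKM in Control at days 8, 9 and 10, at 29.6, 29.1 and 34.3 FPKM in Bcathet and at 32.0, 27.7 and 33.5 FPKM in Cdx2het_Bcathet. Its groups overlapped widely (log2 fold change -0.10 ± 0.0884 SE, limma adjusted p = 0.548).

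Taken set by set, none of the 40 genes rose or fell in Bcathet against Control, where 0.215% of all genes tested passed (0.124% higher, 0.0909% lower), nor in Cdx2het_Bcathet against Control, where 0.628% passed (0.389% higher, 0.24% lower). These comparisons share the Control libraries. In Bcathet 5 of the 40 had an unadjusted p below 0.05 (12.5%, against 16.7% of all genes), Utp20, Gar1, Heatr1 and Ubtf lower and Ppan higher, and in Cdx2het_Bcathet 2 did (5%, against 16.5%), Utp20 and Ubtf. The log2 fold change was -0.25 in Bcathet and -0.19 in Cdx2het_Bcathet for Utp20, -0.23 and -0.19 for Gar1, -0.22 and -0.11 for Heatr1, -0.13 and -0.13 for Ubtf. The 95% intervals of the 40 genes lay between -0.45 and 0.39 in Bcathet and between -0.40 and 0.44 in Cdx2het_Bcathet.

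Between the mutant sets none of the 40 genes passed, and neither did any other gene (0%). No member had an unadjusted p below 0.05, against 3.11% of all genes tested. The outermost bounds of the 40 intervals for Cdx2het_Bcathet minus Bcathet were -0.32 and 0.44, with a median standard error of 0.09. The lowest and highest differences were -0.13 for Utp14a and 0.13 for Wdr43.

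The 3 Control libraries spanned a wider range of the members' median level than the 6 mutant libraries did. The median deviation of the 40 genes from their own means was -0.11, 0.02 and 0.08 on the log2 scale in Control at days 8, 9 and 10, 0.01, -0.09 and 0.01 in Bcathet, and 0.02, -0.07 and 0.05 in Cdx2het_Bcathet. The day-8 Control library was the lowest of the Control libraries for 39 of the 40 genes (97.5%), against 35.9% of all genes tested. It was the lowest of all 9 for 17 (42.5%, against 9.83%), and the day-10 Control library was the highest of all 9 for 17 (42.5%, against 12.1%). Levels in Control were higher at each later day for 26 of the 40 (65%, against 19.4%), Ubtf, Nop58 and Gar1 among them. The genes of 1 library share its RNA, so these counts describe those libraries, and with 1 library a day the day and the library cannot be told apart. Summed over the 40 genes, the Control libraries were at 1431, 1617 and 1702 FPKM, Bcathet at 1604, 1491 and 1542 FPKM and Cdx2het_Bcathet at 1615, 1512 and 1629 FPKM.

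The summed level of a list of markers of another cell type, enterocytes, ran opposite to these differences between libraries only in part. In Control, sums of other lists were highest at day 8 too. Goblet cell markers were at 6365, 4438 and 4731 FPKM at days 8, 9 and 10, and epithelial markers at 4424, 3779 and 3852 FPKM. Within each mutant set, the goblet cell sum was lowest at day 9 and the epithelial sum highest at day 10. Only the enterocyte list was followed further. The enterocyte markers (6 of 6 in the table) summed to 4707, 2134 and 3268 FPKM in Control at days 8, 9 and 10, to 1863, 3348 and 3216 FPKM in Bcathet and to 2084, 5538 and 3532 FPKM in Cdx2het_Bcathet. By this sum, the highest library within each group was the one in which the 40 genes were lowest, although the Bcathet sums of day 9 and day 10 were close. Beyond that library, the order by sums was inverse in Bcathet only. In Control the enterocyte sum was lowest at day 9, but the 40 genes were highest at day 10. In Cdx2het_Bcathet both sums were higher at day 10 than at day 8. Single markers did not all follow the sum: Apoa1, Sis and Slc5a1 were higher at day 10 than at day 9 in Bcathet, and Sis and Slc5a1 in Cdx2het_Bcathet too, these 3 being named after their values were seen. In Control, Sis was at 197.9 FPKM at day 8 and 200.9 FPKM at day 10. The part of the enterocyte markers in the result was not tested, and in bulk RNA fewer cells of a type and less RNA per cell cannot be told apart.

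**Figure D4:**
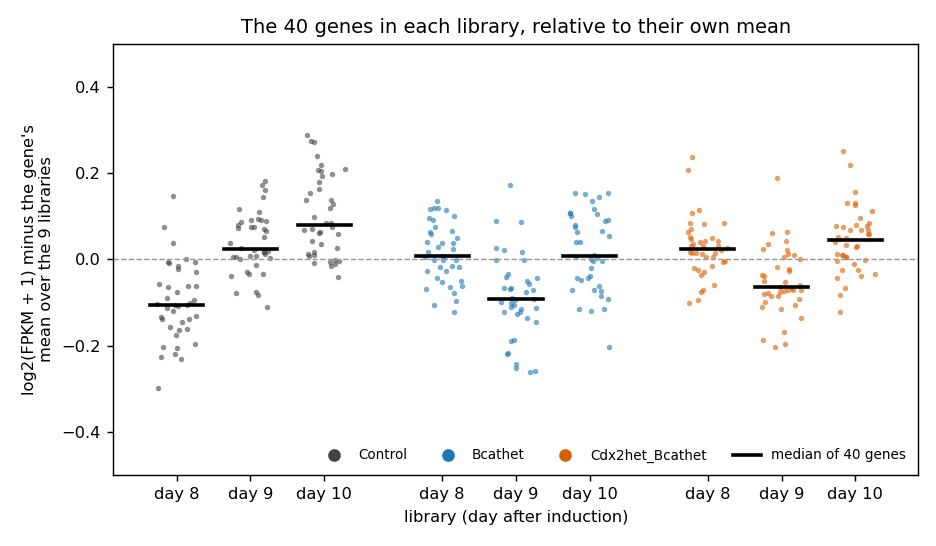
log2(FPKM + 1) of each of the 40 genes minus its mean over the 9 libraries, by library; points are genes and bars their median. The medians run from -0.11 to 0.08 in Control, which spans those of the 6 mutant libraries.

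In a fit of a common slope over the days, none of the 40 genes nor any other gene passed (0%), and none of the 40 had an unadjusted p below 0.05, against 3.22% of all genes. The slope was positive for 37 of the 40 and for 6680 of all 12097 genes tested. The median was 0.03 per day on the log2 scale, against 0.01 over all genes tested. The intervals lay between -0.16 and 0.26 per day. The slope of the mutants minus that of Control, a contrast chosen after seeing the data, was negative for 36 of the 40. It was negative for 5879 of all 12097 genes tested. The median was -0.09, against 0.005 over all genes, and again no gene passed (0%). The genes of 1 library share its RNA, so these signs are not independent. Gnl3 (-0.27 ± 0.0973 SE) and Nop56 (-0.22 ± 0.0706 SE) had an unadjusted p below 0.05, which 5.75% of all genes had, and a limma adjusted p of 0.818.

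Of the other ribosome biogenesis genes on a list, 85 were tested, and none rose or fell against Control in both mutant sets together. The median log2 fold change was -0.02, with 38 positive, and the range was -0.18 to 0.36. At an unadjusted p below 0.05 there were 4 of the 85, against 21% of all genes tested. These were Taf1b, Nat10, Urb1 and Ddx49, which are named for that count after their values were seen. Taf1b, a subunit of the Pol I promoter factor, was at 3.59 ± 0.538 FPKM (SD, n = 3) in Control and 4.91 ± 0.736 FPKM (SD, n = 6) in the mutants (limma adjusted p = 0.154). Of 10 Pol III subunit genes none passed and none had an unadjusted p below 0.05, with a median of -0.04. The same held for the 8 tested p53 targets, which mark nucleolar stress, with a median of -0.01.

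Myc itself was at 63.2, 60.2 and 54.2 FPKM in Control at days 8, 9 and 10, at 65.5, 59.0 and 67.1 FPKM in Bcathet and at 63.8, 56.0 and 61.1 FPKM in Cdx2het_Bcathet. The groups overlapped, and the log2 fold change was 0.07 ± 0.0747 (SE; 95% interval -0.10 to 0.24; limma adjusted p = 0.641). Its partner Max had a log2 fold change of 0.02 (limma adjusted p = 0.925), and the relative Mycl -0.04 (limma adjusted p = 0.953). Mycn, another relative, was at 2.28, 2.58 and 3.20 FPKM in Control, at 1.69, 1.36 and 0.576 FPKM in Bcathet and at 0.608, 1.28 and 0.667 FPKM in Cdx2het_Bcathet. All 6 mutant libraries were below Control, as for 7.37% of all genes tested, with a log2 fold change of -0.89 ± 0.195 (SE) that did not pass (limma adjusted p = 0.0712). Of the 10 Myc network genes tested none passed, and 3 had an unadjusted p below 0.05, against 21% of all genes tested. These were Mycn, Mnt and Mxd3, the last 2 named after their values were seen.

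In the same fit, where 0.645% of all genes tested fell, some genes of other lists passed. Of 20 S phase genes, which copy DNA in dividing cells, 4 fell, none rose, and all 20 log2 fold changes were negative, with a median of -0.33. Uhrf1, which maintains DNA methylation, fell from 38.5 ± 3.66 FPKM (SD, n = 3) to 27.3 ± 1.497 FPKM (SD, n = 6), with a log2 fold change of -0.47 (limma adjusted p = 0.0320). The others that fell were the replication factors Cdc6 and Mcm5 and the DNA repair enzyme Ung, with log2 fold changes of -0.44, -0.43 and -0.42. The S phase count was 12 without the day-9 Cdx2het_Bcathet library and between 0 and 2 without any other single library. Of 7 Paneth cell genes 3 fell, the defensin Defa24, the lysozyme Lyz1 and the antimicrobial ribonuclease Ang4, by 1.41, 1.13 and 2.38 on the log2 scale. They numbered 4 without the day-9 Cdx2het_Bcathet library, 3 without the day-8 or the day-9 Bcathet library, and 0 without any of the other 6. Of the 7 Paneth cell differences 6 were negative, with a median of -1.22. Mmp7, named after its values were seen, was the positive 1. It was at 388 ± 88.1 FPKM (SD, n = 3) in Control and 438 ± 180 FPKM (SD, n = 6) in the mutants. Against Control, no gene of either list passed in Bcathet alone or in Cdx2het_Bcathet alone, though 17 and 18 of the S phase genes and 5 and 5 of the Paneth cell genes had an unadjusted p below 0.05. No test compared these lists with the 40 genes.

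**Figure D5:**
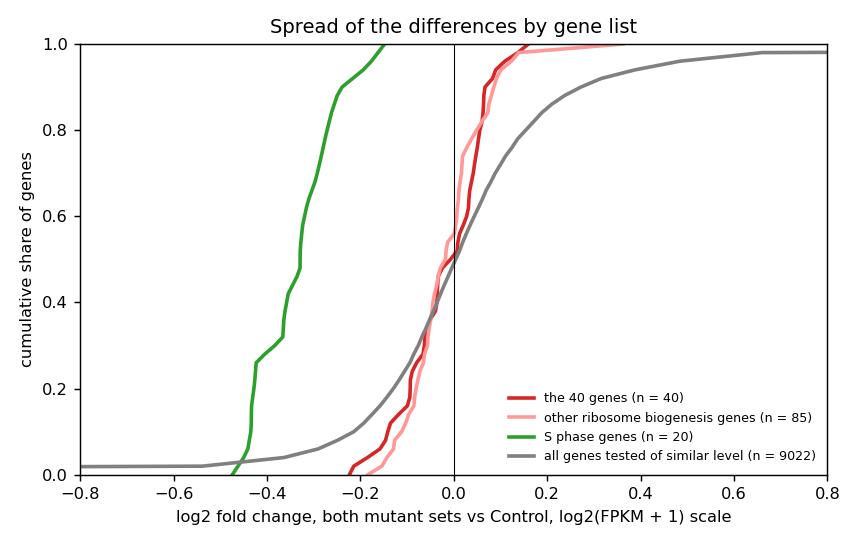
Cumulative share of genes against the log2 fold change of both mutant sets from Control, for the 40 genes, 85 other ribosome biogenesis genes, 20 S phase genes and the 9022 tested genes of similar level. The curves of the 40 genes and of the other ribosome biogenesis genes rise steeply around 0, with medians of -0.01 and -0.02, while that of the S phase genes lies left of 0 throughout, with a median of -0.33.

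Reads of near-identical sequences limit some of these levels. Transcripts of 7 of the 40 genes (Ddx18, Fbl, Mrto4, Nop56, Npm1, Pes1 and Wdr12) had copies of at least 95% identity over at least 500 bases, 16 in all, 2 of which have a row in the table. One is Tulp4, with 99.6% identity to Fbl over 690 bases and a level of 6.57 to 9.45 FPKM. How reads were shared between copies is not stated, so these 7 levels are uncertain. Exons of Utp14a overlapped a gene on the opposite strand over 18.9% of their length, and those of 6 other members over 5.33% at most, and no source states that the reads kept their strand.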

How the data were processed

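The authors deposited 1 table of normalized expression for 9 libraries. Its values are read here as FPKM, deposited by the authors without naming the unit: they are not whole, their sums differ between columns, and every library has an equal median ratio to the geometric means. Tools named without a role, per the submitters' processing notes, are DESeq2 1.40.1 and kallisto 0.46.1, with the build mm9. The annotation and filters are not stated. Read depth is known only as an estimate from the steps between low values of long genes with 1 transcript.

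Groups follow the titles. Values were taken as log2(FPKM + 1), which understates the change of low genes, and tested with limma 3.58.1 (R 4.3.3). The 12097 genes reaching 1 FPKM in 3 or more libraries were tested. Group means were fitted to all 9 libraries, with trend and robust options and Benjamini-Hochberg adjustment at 0.05 over all genes tested. The fit was tested on simulated data. Day was a slope in a separate fit. Values in every library are given for members that pass in any of the 5 fits, the member with the smallest p of each of 6 roles, and the 3 highest and 3 lowest log2 fold changes. Other genes named are Ctnnb1, Cdx2, Myc, Mycn, Mycl, Max and listed genes that passed. The 40 members, the lists and the tests were chosen with earlier results of these data known, so no p is given for a list. Copies were found with blastn 2.17.0 among GENCODE transcripts. Alternatives were a pseudocount of 0.1, no filter, a filter of 5 FPKM, equal column totals, a day block, only the compared groups, and leaving out each library.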

Additional observations from a re-analysis of the deposited data

How the results depend on the processing

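No member passed under any alternative run (pseudocount 0.1, no filter, at least 5 FPKM, equal totals, day block, compared groups only, each library left out), in any of the 5 fits; at 5 FPKM Polr1e dropped out, leaving 39 members. The count of all genes called for both mutant sets was 140 as reported, and 80 without a filter, 169 with equal totals, 97 with the replicate block, and 17 to 995 with 1 library left out, the highest without the day-9 Cdx2het_Bcathet library. With 1 library left out it was 3 to 126 for Bcathet (26 as reported, 16 with the block). For Cdx2het_Bcathet it was then 18 to 483 (76 as reported, 48 with only the compared groups). Between the mutant sets it was 0 to 2 with 1 library left out, and 2 with a pseudocount of 0.1. Deviations of same-day libraries correlated at -0.24 to 0.62 over 9 pairs, and of other-day libraries at -0.55 to 0.29 over 18. The highest were between the mutant sets at day 9 (0.40) and day 10 (0.62). Since not every same-day pair was over 0.1, day was not treated as pairing the samples. With the replicate block (day) 0 members were called and the members' median was -0.01. Leaving out 1 library, that median ran from -0.06 to 0.04 for both sets, -0.08 to 0.01 for Bcathet, -0.06 to 0.06 for Cdx2het_Bcathet and 0.004 to 0.05 between the sets, against a spread between libraries of 0.07 (SD). The differences of single genes that changed sign were near 0. With equal totals the difference of Cdx2het_Bcathet from Bcathet became -0.0420 for Ubtf, -0.0063 for Nop58, -0.0106 for Gar1 and -0.0406 for Ddx21. With 1 library left out it ran from -0.0499 to 0.0827 for Ddx21, -0.0228 to 0.0819 for Gar1, -0.0249 to 0.0860 for Rrp1b, -0.0237 to 0.0295 for Ubtf and -0.0146 to 0.10 for Utp20. Likewise Mrto4 ran from -0.0262 to 0.0855 in Bcathet against Control, and Nop58 from -0.16 to 0.0145 in Cdx2het_Bcathet against Control. The cause was not tested. The fit of compared groups only does not apply to both sets together, and it and the day block were not run for the slope over days. Depth is not known beyond the estimate, and with 3 libraries a group each gene's own interval, not the outermost bounds over 40 genes, limits what can be said of it.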
